A study of Mus musculus with 6 samples.

Results

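The type I interferon-stimulated genes examined here were 44 genes of known antiviral and signaling function, chosen by name from a table of 34745 genes. Each symbol was matched to its row of the expression table, and all 44 had enough counts to be tested, among 13892 genes tested in all. RNA-seq was performed on 3 liver tumors of *Prmt3*f/f mice (replicates 7, 66 and 71) and 3 liver tumors of *Prmt3*LKO mice (replicates 92, 93 and 94). All mice carried the floxed *Prmt3* allele, and *Prmt3*LKO mice also carried Alb-Cre, a recombinase driven by the albumin promoter that acts in hepatocytes, so other cells of a tumor kept the gene. All mice were male, received diethylnitrosamine (DEN, 25 mg/kg) at 2 weeks of age and then carbon tetrachloride (CCl4, 10% in oil, 0.5 ml/kg) from 6 weeks, and tumors were taken at 26 weeks. The labels do not state that the tumors came from separate mice, so the p-values measure the spread between these tumors only.

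Type I interferons (IFN-α and IFN-β) bind the receptor IFNAR1/IFNAR2 and activate the kinases JAK1 and TYK2. The kinases phosphorylate STAT2, which acts with IRF9 in a complex that binds the interferon-stimulated response element (ISRE) in the promoters of its target genes. The targets degrade or mask viral RNA, block viral entry and budding, attach the ubiquitin-like protein ISG15 to other proteins, and amplify or restrain the signal itself. In liver, hepatocytes, macrophages and infiltrating leukocytes can all make this response, and many of the same genes also respond to IFN-γ or to type III interferon.

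The promoters of the members carry the letters of the ISRE more often than promoters in general. The 10-base pattern GAAA, any 2 bases, GAAA was searched on both strands in the 250 bases upstream of the RefSeq start (GRCm38.p6). It was found in 12 of the 33 members with a promoter in the table (36.4%), against 936 of 27025 genes (3.46%) and 2.98% of 32851 windows. The trait is not particular to the members, since it was also found in 8 of 10 target genes of IFN-γ with a promoter in the table. A stretch is shown for each of the 6 members described below that hold the letters, in the order of their FPKM, as read 5′ to 3′ on the strand of the gene. The capitals mark every match to this pattern or to its reverse complement (TTTC, any 2 bases, TTTC), and overlapping matches run together.
Bst2: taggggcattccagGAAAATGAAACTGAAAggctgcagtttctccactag
Isg15: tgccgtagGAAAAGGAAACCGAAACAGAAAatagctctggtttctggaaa
Stat2: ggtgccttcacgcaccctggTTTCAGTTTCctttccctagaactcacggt
Oas1a: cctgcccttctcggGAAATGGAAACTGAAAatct
Ifit3: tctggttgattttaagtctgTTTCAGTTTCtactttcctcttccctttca
Ifit1: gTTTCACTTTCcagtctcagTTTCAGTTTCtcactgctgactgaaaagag

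The stretches lie at chr8:71537567-71537616 (minus strand, *Bst2*), chr4:156200855-156200904 (minus, *Isg15*), chr10:128270256-128270305 (plus, *Stat2*), chr5:120907526-120907559 (minus, *Oas1a*), chr19:34583387-34583436 (plus, *Ifit3*) and chr19:34640784-34640833 (plus, *Ifit1*). The match nearest to the start began 124 bases upstream in *Bst2*, 66 in *Isg15*, 222 in *Stat2*, 14 in *Oas1a*, 122 in *Ifit3* and 85 in *Ifit1*. The 9 letters TTCNNNGAA, a short form of the GAS element known from IFN-γ target promoters, were found in 4 of the 33 members (12.1%), in 5 of the 10 IFN-γ targets and in 8.13% of all genes. The 12 members with ISRE letters had a median log2 fold change (*Prmt3*LKO over *Prmt3*f/f) of -0.05, ranging from -0.21 to 0.41, and the 21 members without them a median of 0.01, ranging from -0.76 to 0.26. Both ranges spanned 0. The map of matches upstream of the start shows where they lie in the 12 members.

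**Figure D1:**
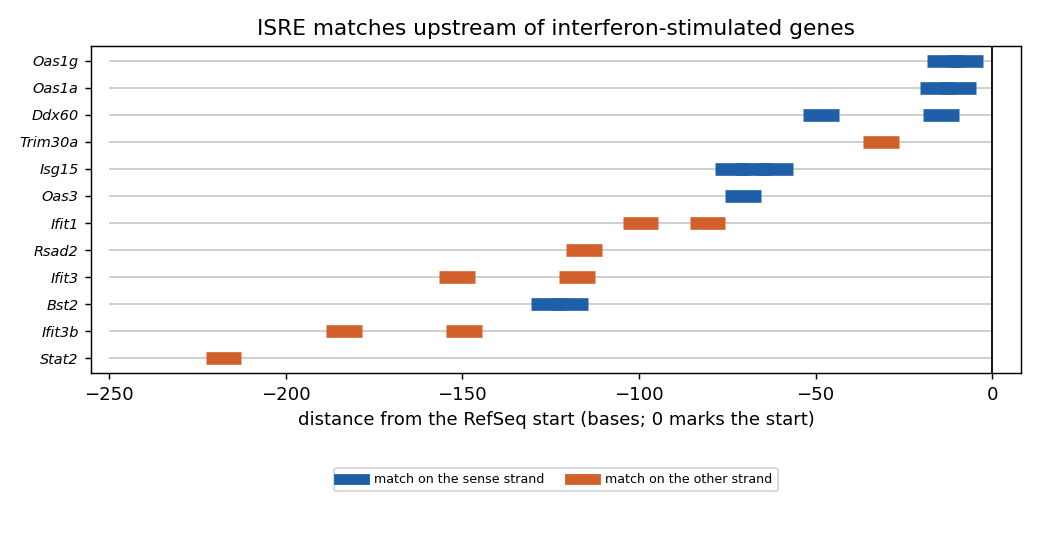
ISRE matches in the 250 bases upstream of the RefSeq start of the 12 members that hold them; the horizontal axis is the distance from the start in bases, each bar is 1 match and its color gives the strand relative to the gene. Relative to the start, the nearest match begins at base -12 in *Oas1g*, at -14 in *Oas1a* and at -222 in *Stat2*.

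The libraries held 18440244 to 27976598 counts. Albumin (*Alb*) took up to 16.1% of them, and the tumor markers *Afp* (44.8 to 216.6 CPM, counts scaled to library size) and *Gpc3* (109 to 358.2 CPM) were present in all tumors. The tumors were not alike in every such marker. *H19* ran from 1.83 CPM in *Prmt3*LKO replicate 92 to 201 CPM in *Prmt3*f/f replicate 7, and *Igf2* was at 0.286 to 2.17 CPM. *Prmt3*, the targeted gene, was at 6.60, 8.49 and 10.2 CPM in *Prmt3*f/f tumors and at 2.80, 2.03 and 3.82 CPM in *Prmt3*LKO tumors, with no overlap. Its log2 fold change was -1.55 (SE 0.29, adjusted p = 0.592 by edgeR's quasi-likelihood test, adjusted by the method of Benjamini and Hochberg). The correlation of log2 CPM between libraries was 0.946 to 0.971 within a genotype and 0.948 to 0.972 across genotypes, so these ranges were alike. The ranges alone do not show whether a single library stood apart.

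The interferon-stimulated genes showed no common direction between the genotypes. Of the 44 members, 22 had a log2 fold change below 0 and 22 above 0, where 49.9% of all genes tested were below 0. Their median log2 fold change was 0.00, with a range of -0.76 (*Epsti1*) to 0.41 (*Bst2*). Of the 44, 41 lay between -0.5 and 0.5, a count that was not made over all genes tested. The limits for a call were an adjusted p under 0.05 and a difference of 2-fold or more either way. No member passed them, and 0% of all genes tested did. Adjusted p-values of the members ranged from 0.739 to 0.998 by edgeR's quasi-likelihood test, and DESeq2, edgeR's exact test and limma-voom also called 0 members. Over all 13892 genes, DESeq2 called 44 lower and 10 higher, the exact test 35 lower and 5 higher, and limma-voom 0. At an unadjusted p under 0.05, 3 members were lower in *Prmt3*LKO tumors (*Zbp1*, *Lgals3bp* and *Epsti1*; 6.82%, against 4.37% of all genes tested) and 1 was higher (*Bst2*, against 2.2%). Both shares were near those of all genes.

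The data also set a bound on how large a difference could be. For 39 of the 44 members (88.6%) the 95% interval of the fold change lay within 0.5 to 2, against 67.5% of all genes tested. The exceptions were *Oas1g*, *Mx2*, *Zbp1*, *Lgals3bp* and *Epsti1*. The members had at least 33 counts in every tumor, and the median width of the interval on either side of the estimate was 0.51 on the log2 scale. In 34 members the difference between genotypes was smaller than the pooled SD within genotypes. The same count over all genes tested was not made, so it does not set the members apart. The plot of intervals shows this for each member.

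**Figure D2:**
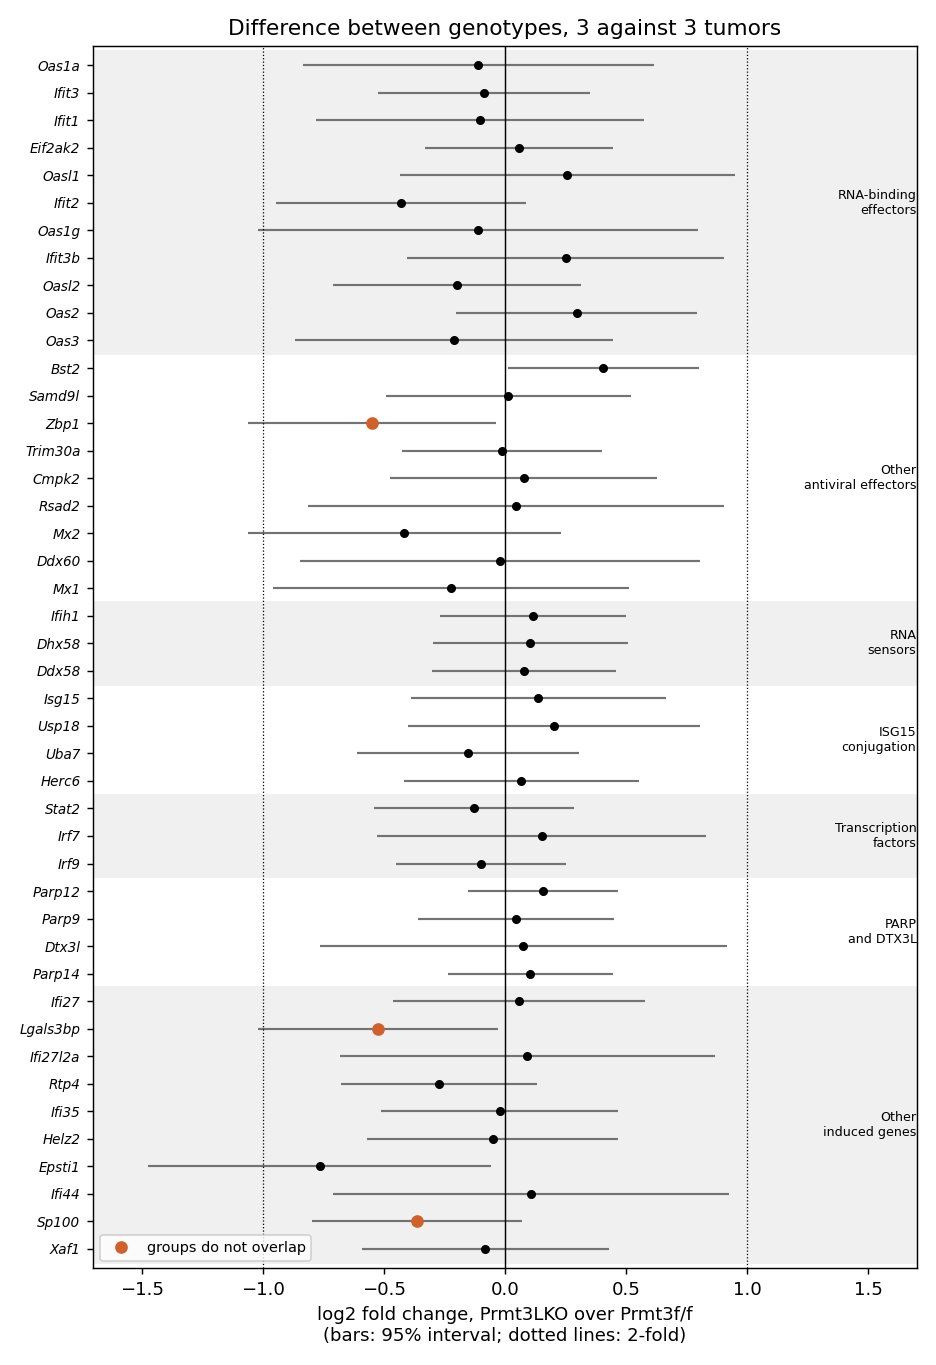
Log2 fold change (*Prmt3*LKO over *Prmt3*f/f, horizontal axis) of the 44 members, 1 row each, grouped by role, with 95% intervals from edgeR's quasi-likelihood fit on 3 against 3 tumors. The points spread on both sides of 0, from -0.76 for *Epsti1* to 0.41 for *Bst2*.

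Most of the spread of the members lay among tumors of the same genotype. *Prmt3*LKO replicate 92 had the highest value of all 6 tumors in 17 members, and *Prmt3*LKO replicate 93 had the lowest in 16 and the highest in 0. With the *Prmt3*f/f mean set to 0, the mean log2 CPM of the members was 0.13 in *Prmt3*LKO replicate 92, -0.26 in replicate 93 and 0.01 in replicate 94, against 0.06, -0.07 and 0.01 in *Prmt3*f/f replicates 7, 66 and 71. The highest and the lowest tumor on this scale thus shared a genotype, and the *Prmt3*f/f tumors lay between them. CPM here use library sizes scaled by a TMM factor, which was smallest in *Prmt3*LKO replicate 92 (0.949) and largest in replicate 93 (1.041). A smaller factor raises CPM, so the place of replicate 92 above *Prmt3*f/f replicate 7 rests on this scaling. The ratio of the highest to the lowest CPM over the 6 tumors ranged from 1.28 to 3.00 (median 1.68), and it was over 2 in 13 members. None of the counts of members in this paragraph was made over all genes tested, so they are not read as traits of the members.

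On the scale per length (FPKM, the count divided by gene length and library total), the mean level over the 6 tumors ranged from 0.378 to 200.01, with a median of 3.62. It was over 10 in 7 members (*Bst2*, *Ifi27*, *Lgals3bp*, *Isg15*, *Parp12*, *Ifi27l2a* and *Stat2*). It was under 1 in 7 others (*Oas2*, *Oas3*, *Oasl2*, *Mx1*, *Mx2*, *Ddx60* and *Herc6*). The plot of FPKM by tumor gives the level of every member.

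**Figure D3:**
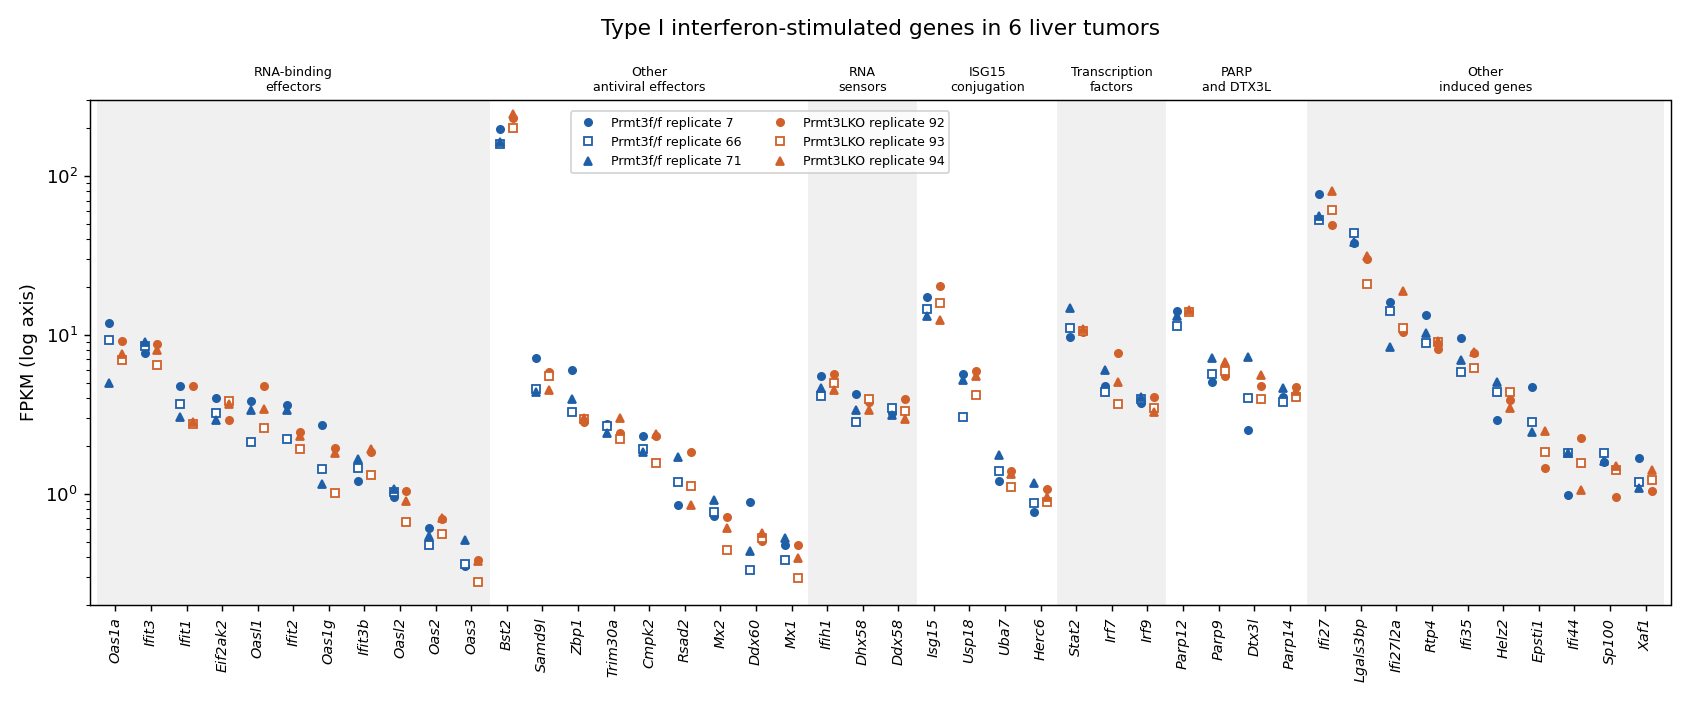
FPKM (log axis) of the 44 members in each tumor, grouped by role; 3 *Prmt3*f/f and 3 *Prmt3*LKO tumors are shown as points in separate colors. *Bst2* has the highest mean (200.01) and 7 members have a mean under 1, and the points of the genotypes are intermixed for most members.

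The RNA-binding effectors are the IFIT proteins, which hold viral RNA that lacks the marks of host mRNA, the OAS enzymes, which make oligoadenylates that switch on RNase L, and PKR (*Eif2ak2*), which stops translation. Of these 11 members, 7 were below 0 and 4 above 0 (median log2 fold change -0.10), and none had an unadjusted p under 0.05. *Ifit1* (ENSMUSG00000034459, chr19:34640871-34650009) was at 12.3, 9.94 and 7.95 CPM in *Prmt3*f/f tumors and 13.4, 7.04 and 7.64 in *Prmt3*LKO tumors. *Prmt3*LKO replicate 92 was the highest of the 6 and the other *Prmt3*LKO tumors the lowest, so the genotypes overlapped. The log2 fold change of *Ifit1* was -0.10 (SE 0.29, 95% interval -0.78 to 0.57, adjusted p = 0.988 by edgeR's quasi-likelihood test).

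*Ifit3* (ENSMUSG00000074896, chr19:34583531-34588731), which joins IFIT1 on RNA, was at 13.1, 15.2 and 15.4 CPM in *Prmt3*f/f tumors and at 16.2, 10.8 and 14.2 in *Prmt3*LKO tumors. The *Prmt3*LKO tumors again held the highest and the lowest value, and its log2 fold change was -0.09 (SE 0.19). *Oas1a* (ENSMUSG00000052776, chr5:120896256-120907521) was at 21.7, 17.8 and 9.21 CPM in *Prmt3*f/f tumors and at 18.1, 12.5 and 14.6 in *Prmt3*LKO tumors. Here both extremes were *Prmt3*f/f tumors, and the log2 fold change was -0.11 (SE 0.31). *Ifit3* with *Ifit3b* and *Oas1a* with *Oas1g* are near-identical copies whose reads the counting could have split, so these 4 values are uncertain. The other 8 members of the group ranged from -0.43 (*Ifit2*) to 0.30 (*Oas2*).

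The next 9 members block entry, replication or budding. They include the GTPases MX1 and MX2, viperin (*Rsad2*), tetherin (*Bst2*), SAMD9L, which restrains translation, and ZBP1, a sensor of Z-form nucleic acid that can start necroptosis. Of these, 5 were below 0 and 4 above 0 (median -0.01). *Bst2* (ENSMUSG00000046718, chr8:71534264-71537437) was at 147.2, 124.9 and 123.3 CPM in *Prmt3*f/f tumors and at 187.1, 146.3 and 190.9 in *Prmt3*LKO tumors. Replicates 92 and 94 of *Prmt3*LKO were the highest, and replicate 93 lay just below *Prmt3*f/f replicate 7, so the genotypes overlapped by a narrow margin. The mean was 175 ± 24.7 CPM (SD, n = 3) against 132 ± 13.4 (SD, n = 3). The log2 fold change was 0.41 (SE 0.17, 95% interval 0.01 to 0.80, unadjusted p = 0.0445, adjusted p = 0.745 by edgeR's quasi-likelihood test; exact two-sided permutation test, p = 0.2). The unadjusted p stayed under 0.05 in 2 of the 6 fits that left out 1 tumor, those without *Prmt3*LKO replicate 93 or *Prmt3*f/f replicate 7. With library sizes not scaled by TMM, and in the deposited FPKM, every *Prmt3*LKO tumor was above every *Prmt3*f/f tumor.

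*Zbp1* (ENSMUSG00000027514, chr2:173206612-173218923) was at 28.02, 16.1 and 18.6 CPM in *Prmt3*f/f tumors and at 14.5, 13.7 and 14.7 in *Prmt3*LKO tumors. All *Prmt3*LKO tumors were below all *Prmt3*f/f tumors, and *Prmt3*f/f replicate 7 was far above the other 2. Its log2 fold change was -0.55 (SE 0.22, 95% interval -1.06 to -0.04, unadjusted p = 0.0385, adjusted p = 0.740 by edgeR's quasi-likelihood test; exact two-sided permutation test, p = 0.1, the minimum for 3 against 3). Without *Prmt3*f/f replicate 7 the log2 fold change was -0.29, and the unadjusted p was under 0.05 in 2 of the 6 fits that left out 1 tumor, those without *Prmt3*f/f replicate 66 or 71.

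*Mx1* (ENSMUSG00000000386, chr16:97447035-97462907) was at 2.45, 2.05 and 2.74 CPM in *Prmt3*f/f tumors and at 2.63, 1.49 and 2.11 in *Prmt3*LKO tumors, with a log2 fold change of -0.22 (SE 0.32). *Samd9l* (ENSMUSG00000047735, chr6:3372257-3399572) was at 40.0, 26.7 and 24.6 CPM against 35.4, 30.4 and 26.4, with a log2 fold change of 0.01 (SE 0.22). The genotypes overlapped in both genes, and the sign for *Samd9l* turned when TMM was left out (-0.02). The other 5 members ranged from -0.41 (*Mx2*) to 0.08 (*Cmpk2*), and *Trim30a* has close relatives in its gene cluster that can share its reads.

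The cytosolic RNA sensors RIG-I (*Ddx58*), MDA5 (*Ifih1*) and LGP2 (*Dhx58*) all lay slightly above 0, from 0.08 to 0.12. *Ifih1* (ENSMUSG00000026896, chr2:62595798-62646255) was at 60.8, 48.0 and 51.4 CPM in *Prmt3*f/f tumors and at 68.0, 53.7 and 51.9 in *Prmt3*LKO tumors. *Dhx58* (ENSMUSG00000017830, chr11:100694884-100704271) was at 18.05, 12.7 and 14.6 CPM against 17.3, 16.5 and 14.98. The genotypes overlapped in both genes. The differences were within the spread of the tumors, with SE of 0.17 for both log2 fold changes (adjusted p = 0.963 and 0.968 by edgeR's quasi-likelihood test).

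Of the ISG15 system, *Isg15* itself, the activating enzyme *Uba7*, the ligase *Herc6* and the protease *Usp18*, which also holds back the receptor, 1 was below 0 and 3 above 0. *Isg15* (ENSMUSG00000035692, chr4:156199424-156200818) was at 12.8, 11.3 and 9.81 CPM in *Prmt3*f/f tumors and at 16.2, 11.6 and 9.55 in *Prmt3*LKO tumors. *Usp18* (ENSMUSG00000030107, chr6:121245906-121270917) was at 19.1, 10.7 and 17.7 CPM against 21.4, 13.9 and 19.4. *Prmt3*LKO replicate 92 was the highest tumor for both genes, *Prmt3*LKO replicate 94 was the lowest for *Isg15* and *Prmt3*f/f replicate 66 for *Usp18*, so the genotypes overlapped. The log2 fold changes were 0.14 (SE 0.23) for *Isg15* and 0.20 (SE 0.26) for *Usp18*.

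Of the transcription factors, *Stat2* and *Irf9* were below 0 (-0.13 and -0.10) and *Irf7*, which drives the IFN-α genes, was above (0.15). *Stat2* (ENSMUSG00000040033, chr10:128270576-128292849) was at 41.9, 50.9 and 64.6 CPM in *Prmt3*f/f tumors and at 49.3, 45.5 and 49.4 in *Prmt3*LKO tumors. *Irf7* (ENSMUSG00000025498, chr7:141262706-141266481) was at 29.8, 28.7 and 37.8 CPM against 52.0, 22.6 and 32.7. The *Prmt3*f/f tumors bracketed the others for *Stat2*, and the *Prmt3*LKO tumors did so for *Irf7*. *Irf7* shares part of its locus with *Phrf1* on the opposite strand and *Irf9* with *Rnf31* on the same strand, and the strand setting of the counting is not given, so reads could have been assigned to either gene.

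The ADP-ribosylation group holds PARP9 and its partner ubiquitin ligase DTX3L, PARP12 and PARP14. All 4 lay above 0, from 0.05 to 0.16. *Parp12* (ENSMUSG00000038507, chr6:39086410-39118349) was at 58.3, 49.1 and 54.7 CPM in *Prmt3*f/f tumors and at 63.0, 56.8 and 61.3 in *Prmt3*LKO tumors. *Parp9* (ENSMUSG00000022906, chr16:35938470-35972605) was at 30.2, 35.8 and 43.6 CPM against 35.9, 34.9 and 42.5. The genotypes overlapped in both genes, and the log2 fold changes were 0.16 (SE 0.13, adjusted p = 0.915 by edgeR's quasi-likelihood test) and 0.05 (SE 0.17). *Parp9* and *Dtx3l* lie head to head on opposite strands with a short overlap.

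The remaining 10 members are a mixed group, with 7 below 0 and 3 above 0 (median -0.06), and they held the lowest estimate of all members. *Lgals3bp* (ENSMUSG00000033880, chr11:118392751-118402092), a secreted glycoprotein that binds galectins, was at 157.9, 193.5 and 164.3 CPM in *Prmt3*f/f tumors and at 136.1, 86.4 and 136.6 in *Prmt3*LKO tumors. All *Prmt3*LKO tumors were below all *Prmt3*f/f tumors, with replicate 93 the lowest. The mean was 120 ± 28.9 CPM (SD, n = 3) against 172 ± 18.99 (SD, n = 3). The log2 fold change was -0.52 (SE 0.21, 95% interval -1.02 to -0.03, unadjusted p = 0.0414, adjusted p = 0.742 by edgeR's quasi-likelihood test; exact two-sided permutation test, p = 0.1). The unadjusted p was under 0.05 in 3 of the 6 fits that left out 1 tumor, and without *Prmt3*LKO replicate 93 the log2 fold change was -0.33.

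*Epsti1* (ENSMUSG00000022014, chr14:77904239-78002656) was at 11.8, 7.51 and 6.19 CPM in *Prmt3*f/f tumors and at 3.94, 4.56 and 6.48 in *Prmt3*LKO tumors. Replicate 94 of *Prmt3*LKO was above *Prmt3*f/f replicate 71, so the genotypes overlapped. The log2 fold change was -0.76 (SE 0.30, 95% interval -1.47 to -0.06, unadjusted p = 0.0377, adjusted p = 0.739 by edgeR's quasi-likelihood test; exact two-sided permutation test, p = 0.2). It was -0.46 without *Prmt3*f/f replicate 7.

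*Sp100* (ENSMUSG00000026222, chr1:85649988-85709998), a component of PML nuclear bodies, was at 15.4, 18.3 and 15.8 CPM in *Prmt3*f/f tumors and at 10.1, 13.4 and 14.98 in *Prmt3*LKO tumors. The genotypes did not overlap, but *Prmt3*LKO replicate 94 lay close to the controls, and the log2 fold change was -0.36 (SE 0.19, adjusted p = 0.798 by edgeR's quasi-likelihood test). *Zbp1*, *Lgals3bp* and *Sp100* were thus the 3 of 44 members (6.82%) with every *Prmt3*LKO tumor below every *Prmt3*f/f tumor, against 6.6% of all genes tested, and 0 were above in every tumor, against 5.56%. *Ifi27* (ENSMUSG00000064215, chr12:103434211-103440239), a small membrane protein, was at 189.9, 138.8 and 140.4 CPM in *Prmt3*f/f tumors and at 132.1, 149.0 and 207.5 in *Prmt3*LKO tumors. Its genotypes overlapped widely (log2 fold change 0.06, SE 0.22), and it can share reads with the neighboring *Ifi27l2a*.

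The genes upstream of the response were then examined. Of 20 interferon ligand genes, 18 had 0 counts in every tumor, which allows up to 0.107 to 0.163 CPM per library (3 counts, counting error only). *Ifng*, the only ligand gene above 3 counts in a tumor, had 2, 7 and 8 counts in *Prmt3*f/f tumors and 0, 2 and 4 in *Prmt3*LKO tumors, too few to be tested. At this depth the type I ligands were thus not detected in either genotype, apart from *Ifnk* with at most 2 counts. The receptor chains *Ifnar1* (43.7, 40.5 and 37.4 CPM against 39.8, 42.0 and 36.9) and *Ifnar2* (75.8, 63.4 and 55.4 against 70.4, 52.1 and 58.0) overlapped between genotypes. So did the kinases *Jak1* and *Tyk2*, with log2 fold changes of -0.08 (SE 0.15) and 0.03 (SE 0.13).

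Of the 32 other pathway genes tested, 25 were below 0 and 7 above 0 (median -0.17). None passed an adjusted p under 0.05 by edgeR's quasi-likelihood test, DESeq2, edgeR's exact test or limma-voom. At an unadjusted p under 0.05, *Samhd1*, *Tlr3* and *Tmem173* were lower (3 genes, 9.38%, against 4.37% of all genes) and 0 were higher. In 8 genes every *Prmt3*LKO tumor was below every *Prmt3*f/f tumor (25%, against 6.6%). The kinase gene *Tbk1* was the 1 gene higher in every *Prmt3*LKO tumor, against 5.56% of all genes, with a log2 fold change of 0.18 (SE 0.13). The 7 receptor and kinase genes had a median of -0.11, the 15 nucleic acid sensing genes -0.17 and the 10 genes that restrain the pathway -0.20, so the estimates leaned below 0 in each.

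*Samhd1*, which hydrolyzes dNTPs, was at 36.4, 36.9 and 36.9 CPM in *Prmt3*f/f tumors and at 24.7, 24.4 and 28.2 in *Prmt3*LKO tumors. The tumors of each genotype lay close together and well apart from the other genotype (log2 fold change -0.51, SE 0.13, unadjusted p = 0.00421, adjusted p = 0.592 by edgeR's quasi-likelihood test). *Tlr3*, the endosomal receptor of double-stranded RNA, was at 11.4, 8.91 and 8.02 CPM against 7.72, 6.09 and 6.18 (log2 fold change -0.50, SE 0.20, unadjusted p = 0.0407 and adjusted p = 0.742 by the same test). *Tmem173*, which encodes STING, was at 11.6, 8.21 and 7.59 CPM against 6.29, 5.91 and 7.09 (log2 fold change -0.51, SE 0.22, unadjusted p = 0.0477 and adjusted p = 0.755 by the same test). In both, every *Prmt3*LKO tumor was below every *Prmt3*f/f tumor.

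Target genes of IFN-γ and markers of leukocytes, written as separate lists, gave other values than the type I members. Of 12 IFN-γ targets tested, 12 were below 0 (median -0.78), 9 were lower at an unadjusted p under 0.05 against 4.37% of all genes. An adjusted p under 0.05 was reached by 0 of them with edgeR's quasi-likelihood test and limma-voom, 4 with DESeq2 (*Gbp2*, *Gbp5*, *Tgtp2* and *Ciita*) and 2 with edgeR's exact test (*Gbp2* and *Gbp5*). The interval lay within 0.5 to 2 for 1 of them. *Gbp2*, a guanylate-binding GTPase, was at 21.4, 27.5 and 44.2 CPM in *Prmt3*f/f tumors and at 5.77, 13.5 and 9.75 in *Prmt3*LKO tumors, and *Cxcl9*, a T cell chemokine, was at 92.05, 113 and 185 CPM against 27.7, 77.0 and 31.3. Neither gene overlapped between genotypes. Mean log2 CPM of this list, relative to the *Prmt3*f/f mean, was -1.14, -0.83 and -0.80 in *Prmt3*LKO replicates 92, 93 and 94, against 0.13, -0.26 and 0.01 for the type I members in the same tumors. The difference between the lists was not tested.

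Of the 6 pan-leukocyte markers, 6 were lower at an unadjusted p under 0.05 (median -0.85), none was at 0, and 3 (*Ptprc*, *Plek* and *Selplg*) reached an adjusted p under 0.05 with DESeq2 and the exact test but 0 with the quasi-likelihood test. Their summed level was 145.6 to 194.2 CPM in *Prmt3*f/f tumors and 82.3 to 109.3 in *Prmt3*LKO tumors. Of 7 T cell markers 4 were lower at that threshold (summed level 23.5 to 30.1 CPM against 5.43 to 17.2). Of 7 macrophage and Kupffer cell markers 5 were lower (304 to 371 CPM against 194.8 to 282.3). Over all genes tested, the share lower at that threshold was 4.37%. The marker lists were written with earlier results of these data known. In these bulk samples, fewer cells of a type and less RNA per cell cannot be told apart, and the part of these cells in the values of *Zbp1*, *Lgals3bp*, *Epsti1*, *Sp100*, *Samhd1*, *Tlr3* and *Tmem173* was not tested. *Prmt3*LKO replicate 92 had the highest mean of the interferon-stimulated genes on TMM-scaled CPM. Its summed levels of pan-leukocyte markers (82.3 CPM) and of T cell markers (5.43 CPM) were the lowest of all tumors. The summed level of macrophage and Kupffer cell markers was lowest in *Prmt3*LKO replicate 93 (194.8 CPM), the tumor with the lowest mean of the members. It was 278.7 in replicate 92 and 282.3 in replicate 94. Among *Prmt3*f/f tumors, replicate 66 had the highest macrophage and Kupffer cell sum (371.4 CPM) and the lowest mean of the members. Replicate 7 had the highest pan-leukocyte sum (194.2 CPM) and the highest mean of the members among them. Neither order thus held over all 6 tumors, and no relation was tested. Together, the 44 members summed to 1375 CPM in *Prmt3*LKO replicate 92, 1118 in replicate 93 and 1349 in replicate 94. The *Prmt3*f/f tumors had sums of 1314, 1244 and 1299 CPM. *Cd8a* and *Marco* were the T cell and macrophage markers with an adjusted p under 0.05, in each case with DESeq2 and the exact test but not with the quasi-likelihood test or limma-voom. By staining, the paper reported more CD8+ T cells in tumors of *Prmt3*LKO mice, a measure unlike RNA in bulk tumors. Of the other marker lists, neutrophil markers had a median log2 fold change of -1.49 (4 of 5 lower at an unadjusted p under 0.05), liver tumor markers of -0.76 (1 of 7), plasmacytoid dendritic cell markers of -0.43 (2 of 6), B cell markers of -0.33 (0 of 5), endothelial markers of -0.10 (0 of 5) and hepatocyte markers of 0.20 (0 of 9 lower and 1 higher). The plasmacytoid dendritic cell list was split. *Siglech*, *Ccr9* and *Irf8* were lower in every *Prmt3*LKO tumor (log2 fold changes -1.27, -1.51 and -0.51). The genotypes overlapped in *Tcf4* (-0.26), *Klk1* (0.37) and *Ly6d* (-0.35), and *Ly6d* ran from 74.3 to 1243 CPM. Which cells gave these values was not tested. The plot of list means by tumor and the plot of fold changes by list show some of these lists side by side.

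**Figure D4:**
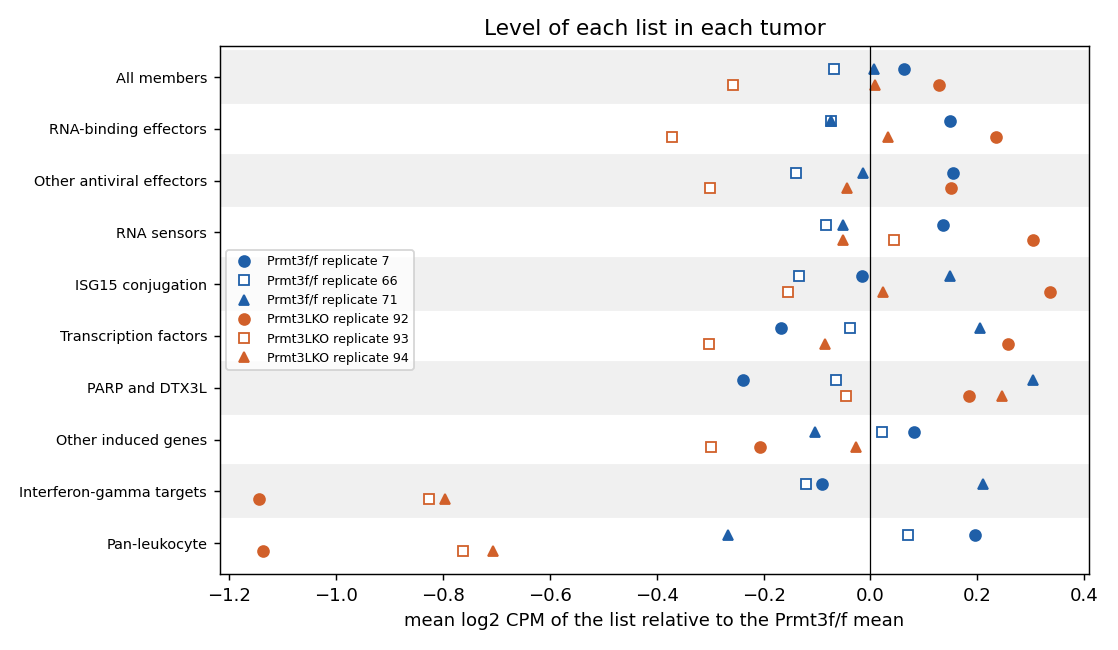
Mean log2 CPM of each gene list (rows) in each of the 6 tumors, on a horizontal axis with the *Prmt3*f/f mean set to 0 and 1 point per tumor. The type I members lie between -0.26 and 0.13 in all tumors, while the IFN-γ targets lie between -1.14 and -0.80 in *Prmt3*LKO tumors.

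**Figure D5:**
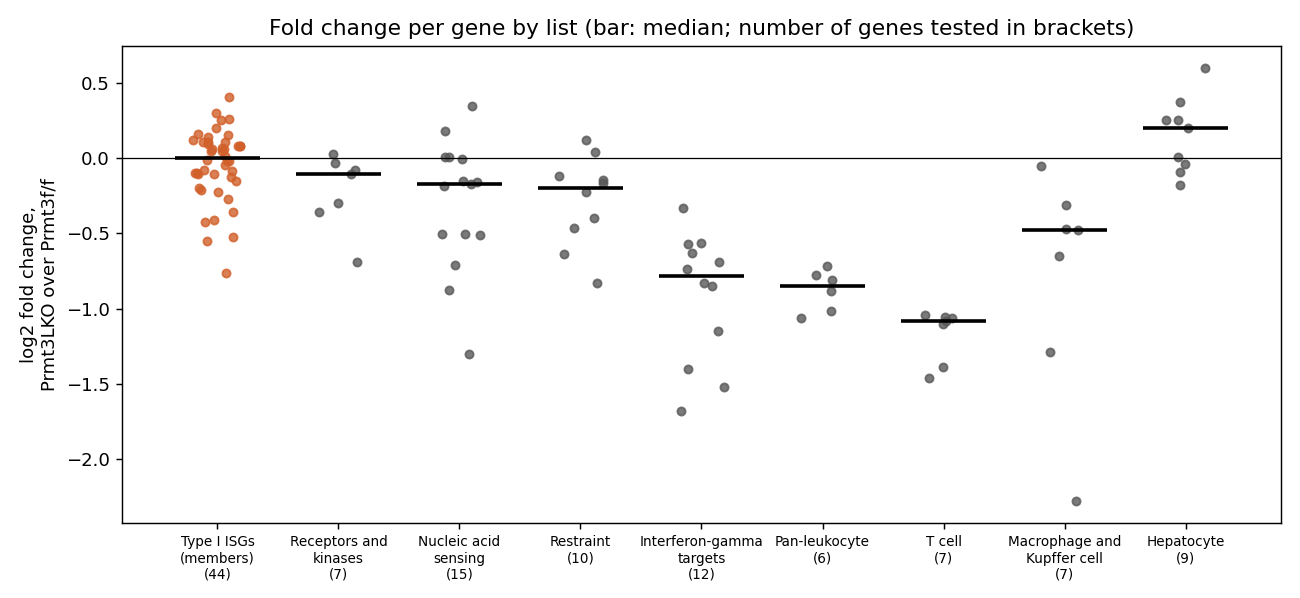
Log2 fold change (*Prmt3*LKO over *Prmt3*f/f) of each tested gene by list, with points for genes and bars for list medians. The median is 0.00 for the type I members, -0.11 for receptors and kinases, -0.17 for nucleic acid sensing, -0.20 for restraint of the pathway, -0.78 for the IFN-γ targets and -0.85 for the pan-leukocyte markers. *Socs1* is counted both in the restraint list and among the IFN-γ targets.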

How the data were processed

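The authors aligned reads to GRCm38 and deposited, for each of 34745 genes, whole-number counts and FPKM values in 6 tumors. The submitters' processing notes name bcl2fastq 2.19, HISAT2 2.0.4 and StringTie 1.3.0. The counting tool, annotation and strand setting are not given in the sources used here. The deposited FPKM values equal the count divided by gene length and total count (8975 genes with at least 100 counts, largest ratio 1.00). All 12 value columns belong to these tumors, and 0 were left unused.

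Low counts were removed by filterByExpr (minimum count 10, minimum total 15), which left 13892 genes. These were scaled by TMM and compared in edgeR 4.0.16 (R 4.3.3) by its quasi-likelihood test, with p-values adjusted over all of them by the method of Benjamini and Hochberg. CPM use TMM-scaled library sizes, and log2 CPM a prior count of 2. On simulated data (13704 genes tested) the test recovered 162 of 197 genes changed 4-fold, with 11 false calls, and DESeq2 recovered 178, with 40 false calls. Smaller changes, such as those of the members, were not simulated, so this recovery does not apply to them. Alternatives were DESeq2 1.42.0, edgeR's exact test, limma-voom (limma 3.58.1), no TMM, no filter, a filter at a mean of 1 CPM, log2(FPKM + 1), log2(FPKM + 0.1), and leaving out each tumor in turn.

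The members and gene lists were written by hand and chosen with earlier results of these data known, so they are not independent support. Values per tumor are given for members with an unadjusted p under 0.05 or with no overlap between genotypes, the 2 members of each role with the highest FPKM, and *Isg15*, *Ifit1*, *Mx1*, *Oas1a*, *Irf7* and *Usp18*. Outside the members they are given for *Prmt3*, the receptor chains, detected ligands and pathway genes with an unadjusted p under 0.05. The 10 other genes most like the mean of the members are named in the closing section. *Dtx3l*, *Tbk1*, *Afp*, *Gpc3*, *H19*, *Igf2* and the genes named from the IFN-γ target and leukocyte lists were outside this rule, named after their values were seen. Of the 44 members, 33 matched the RefSeq promoter table. A gene that the rule also names is not reported here.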

Additional observations from a re-analysis of the deposited data

How the results depend on the processing

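No adjusted call was made for a member under any of 14 alternatives (smallest adjusted p 0.518), and 17 members kept their sign in all of them. Members with an unadjusted p under 0.05 and lower in *Prmt3*LKO tumors numbered 1 with limma-voom and 0 to 3 when a tumor was left out (0 without *Prmt3*LKO replicate 93, 1 without *Prmt3*LKO replicate 92 or *Prmt3*f/f replicate 7). Over all genes tested, the share was 3.91% with limma-voom and 2.93% to 5.12% when a tumor was left out. Higher members numbered 0 with either FPKM pseudocount, the exact test, no TMM or no filter, and 0 to 1 when a tumor was left out. Over all genes tested, the share higher was 1.53% to 1.81% in the former settings and 1.28% to 3.99% in the latter. Members higher in every *Prmt3*LKO tumor numbered 1 without TMM and in FPKM, and those lower in every one numbered 4. The share over all genes on these scales is not given here. Other pathway genes lower at an unadjusted p under 0.05 numbered 1 with DESeq2 and with the exact test (4.53% and 4.39% of all genes). They numbered 2 to 4 when a tumor was left out. The median of the members was -0.10 to 0.10 with a tumor left out and -0.03 to 0.02 otherwise. *Samd9l* was -0.0157 without TMM. *Prmt3* passed the adjusted threshold with DESeq2 (p = 0.00350) and edgeR's exact test (p = 0.00735).

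With 1 tumor left out, these log2 fold changes ran through 0: *Ifit1* -0.45 to 0.0692, *Ifit3* -0.22 to 0.0635, *Oas1a* -0.39 to 0.15, *Samd9l* -0.12 to 0.25, *Ifih1* -0.0144 to 0.21, *Dhx58* -0.00367 to 0.24, *Isg15* -0.0946 to 0.30, *Usp18* -0.0130 to 0.36, *Stat2* -0.27 to 0.0522, *Irf7* -0.22 to 0.40, *Parp9* -0.0811 to 0.20, *Ifi27* -0.15 to 0.21, *Ifnar1* -0.0880 to 0.0158, *Ifnar2* -0.24 to 0.00871, *Jak1* -0.14 to 0.00226 and *Tyk2* -0.0155 to 0.0676. The cause was not tested. No paired analysis was possible because the genotypes share no replicate numbers. With 3 tumors a genotype, differences of the size seen for most members could not be told from the spread between tumors.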

Other observations

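The members were only loosely tied to each other across the 6 tumors. Over the 946 pairs of members, the median Pearson correlation of log2 CPM was 0.22, with a range of -0.94 to 0.98, and 622 pairs were above 0. These values describe 6 libraries that all pairs share, and carry no test. The closest pairs were *Zbp1* with *Rtp4* (0.98), *Ifit3* with *Oasl2* (0.97), *Oas3* with *Uba7* (0.97), *Oas2* with *Bst2* (0.96) and the neighbors *Parp9* and *Dtx3l* (0.96). *Dtx3l* was at 17.9, 29.8 and 51.9 CPM in *Prmt3*f/f tumors and at 36.4, 27.5 and 41.2 in *Prmt3*LKO tumors, so its spread was widest among the controls.

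Among 12734 other genes with a mean of at least 1 CPM, the 10 whose log2 CPM over the 6 tumors was most like the mean of the members (Pearson r, described with no test) were *Slc3a1* (0.99), *Tdo2* (0.99), *Gm16548* (0.99), *l7Rn6* (0.98), *Hacd1* (0.98), *Dedd2* (0.98), *4930481A15Rik* (0.98), *Tmco1* (0.97), *Ddo* (0.97) and *Wfdc21* (0.96). *Tdo2*, the hepatic tryptophan dioxygenase, was at 1055, 807.4 and 1029 CPM in *Prmt3*f/f tumors and at 1178, 527.5 and 954.3 in *Prmt3*LKO tumors. *Slc3a1*, a subunit of an amino acid transporter, was at 29.2, 11.1 and 22.2 CPM against 37.5, 3.79 and 16.4. *Prmt3*LKO replicate 92 was the highest and replicate 93 the lowest for both, and all 10 genes overlapped between genotypes. The 10 were picked for a high r among 12734 genes over 6 tumors, so the size of r is no evidence of a shared response.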
